A study of Mus musculus with 5 samples.

Results

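The canonical histone cluster genes encode the 5 histone types that package newly copied DNA: H2A, H2B, H3 and H4, which form the core of the nucleosome, and H1, which binds the linker DNA between nucleosomes. They were chosen by symbol, as every row of the gene table named Hist1h to Hist4h, which gave 68 of 24419 genes. Of these, 54 lie in the Hist1 cluster, 10 in Hist2, 3 in Hist3 and 1 in Hist4. By symbol, 6 are of type H1, 18 H2A, 19 H2B, 12 H3 and 13 H4. Among the H2B rows, Hist3h2bb-ps is annotated as a processed pseudogene and had 0 UMIs.

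RNA came from bone marrow-derived macrophages (BMMs) of C57BL/6 mice (C57BL6/J in the design text), grown for 5 days in 50 ng/ml M-CSF, the growth factor that drives bone marrow cells to become macrophages, and then activated with 100 ng/ml LPS, a bacterial cell wall component. Every library shares these steps. The PBS group (n = 2, titled no treatment in the labels) then received PBS, and the Sema3G group (n = 3) received 100 ng/ml recombinant Semaphorin 3G, a secreted guidance protein, for 18 h. The labels give no animal age and do not say that replicates came from separate cultures, so p-values measure the spread between these samples, which may be technical.

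Histone mRNAs of this class are made mainly in S phase, when DNA is copied. Most end without a poly(A) tail: a short stem-loop near the stop codon is bound by the stem-loop binding protein Slbp, and the RNA is cut just after it. Histone variants, such as H2A.Z and H3.3, are made throughout the cell cycle from ordinary polyadenylated mRNAs, and some canonical genes, among them genes for H2B, can also yield polyadenylated mRNA in cells that have stopped dividing. Reverse transcription started from poly(A), and the kit tagged the 3′ end of each molecule with a unique molecular identifier (UMI), so 1 UMI stands for about 1 tagged RNA whatever its length. The values therefore describe histone RNA that carries a poly(A) tail or another A-rich stretch, not total histone RNA.

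All 68 genes had a gene model in GENCODE M21 on GRCm38, the same build as mm10. The histone stem-loop consensus (16 bases, searched on the transcript strand, with no overlap with other motifs searched) was found in 46 of the 68, against 0.310% of 21901 protein-coding genes. The most frequent form stood in 26 of them, of types H1, H2A, H2B and H3, and a form with more G and C in the stem stood in 7 H4 genes. Of the 22 genes without a match, 17 have a model that ends within 50 bases of the stop codon. A stem-loop beyond the end of such a model would be missed. The stem-loops of named genes are shown because this is where a canonical histone mRNA normally ends, with the stem-loop in capitals and 5 bases on either side.
Hist1h1e (H1, chr13:23621782-23621797, minus strand): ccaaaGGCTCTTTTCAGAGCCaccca
Hist1h1c (H1, chr13:23739512-23739527, plus strand): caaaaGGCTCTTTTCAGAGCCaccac
Hist2h2ac (H2A, chr3:96220418-96220433, minus strand): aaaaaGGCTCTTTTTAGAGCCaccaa
Hist1h2ae (H2A, chr13:23570668-23570683, minus strand): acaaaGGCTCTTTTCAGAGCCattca
Hist1h4h (H4, chr13:23531458-23531473, plus strand): ccaaaGGCCCTTTTCAGGGCCgccca
Hist1h4i (H4, chr13:22040966-22040981, minus strand): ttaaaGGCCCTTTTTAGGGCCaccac

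Hist1h2bc and Hist2h2be, which held most of the H2B signal, had no match to the stem-loop in their models. Hist1h2bc (chr13:23684199-23692908, plus strand) has 2 exons of 423 and 733 bases, and the second lies wholly in the 3′ untranslated region. Hist2h2be (chr3:96221119-96223738, plus strand) is a single exon of 2620 bases, of which 2192 follow the stop codon. Both carry the poly(A) signal AATAAA close to the end of the RefSeq model (GRCm38.p6), 13 bases before it in Hist1h2bc and 16 in Hist2h2be. These sites are shown, with AATAAA in capitals and 10 bases on either side, as the counterpart of the stem-loops above.
Hist1h2bc (chr13:23692462-23692467, plus strand): atgtatatatAATAAAtgtcatgtaa
Hist2h2be (chr3:96223717-96223722, plus strand): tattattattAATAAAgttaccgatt

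AATAAA or ATTAAA in the last 50 bases of the GENCODE transcript was found in 17 of the 68 genes, against 50.2% of protein-coding transcripts. Hist1h1e, the third gene with a sizeable count, differs from both H2B genes. Its GENCODE model (chr13:23620629-23622558, minus strand) is 1 exon of 1930 bases with a stem-loop 40 bases after the stop codon and a further 1153 bases beyond it, while its RefSeq model ends at 23621777, just past the stem-loop. Neither hexamer occurs in the GENCODE transcript. The extension overlaps, on the same strand, a first exon of Hist1h2be and the gene Gm11398, so reads there cannot be assigned to 1 gene with certainty. The richest 20-base stretch of A in Hist1h1e lies in its coding sequence (chr13:23621842-23621861, minus strand) and is shown with A in capitals, since oligo(dT) priming favors A-rich sequence.
Hist1h1e: AAAAccgcAgccAAgAAAAA
It holds 12 A, as many as or fewer than the richest stretch in 70.4% of protein-coding transcripts.

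**Figure D1:**
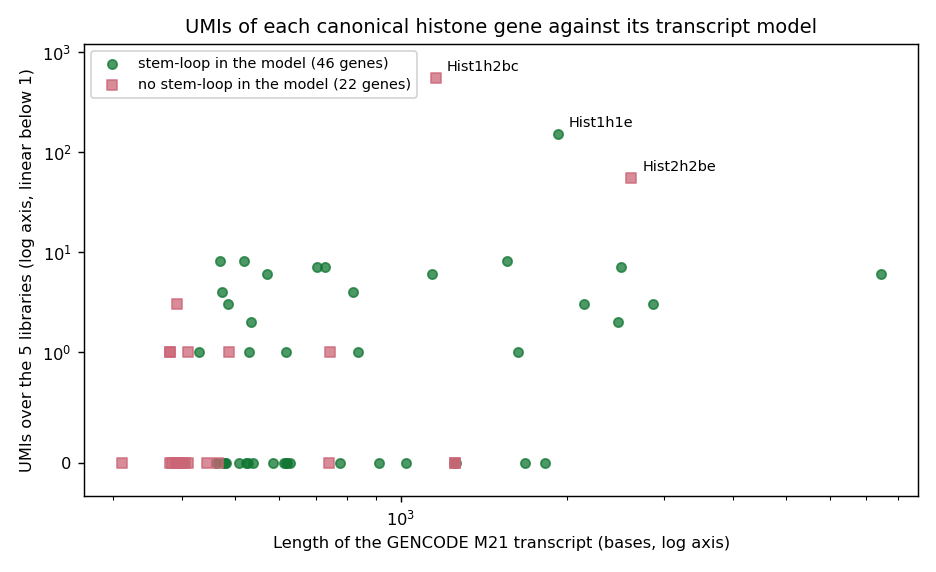
Total UMIs over the 5 libraries of each of the 68 genes (vertical axis, log scale, linear below 1) against the length of its GENCODE M21 transcript in bases (horizontal axis, log scale). Green circles are the 46 genes with a stem-loop in the model and red squares the 22 without; Hist1h2bc, Hist1h1e and Hist2h2be stand above all others, which have 8 UMIs or fewer.

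In these poly(A)-primed libraries, histone UMIs were scarce and fell on a handful of genes. The 68 genes together held 849 of 9871723 UMIs. At least 1 UMI was found for 30 genes, and 38 (55.9%) were at 0 in every library, against 47.6% of all rows. A count of 0 over the 5 libraries allows a level of up to 0.304 CPM (UMI counts scaled to a common library total of 1000000). Hist1h2bc had 546 UMIs, Hist1h1e 151 and Hist2h2be 55, which is 88.6% of the histone UMIs, and each of the other 27 detected genes had 1 to 8. By model, the 18 genes longer than 1000 bases held 788 UMIs and the 50 shorter ones 61, but the 3 leading genes gave 752 of the 788 and the other 15 long genes 36. The 22 genes whose model ends within 100 bases of the stem-loop held 33 UMIs, and the 23 with a longer stretch after it held 207, of which 151 were from Hist1h1e. Hist1h1e changes class with the model, being 782 bases long with 5 bases after the stem-loop in RefSeq. With that model the counts were 184 and 56 UMIs by the stretch after the stem-loop, and 637 and 212 by length. Which model the authors counted on is not stated. In 1 gene the stem-loop occurs in a shorter transcript only. The 22 genes with no stem-loop in the model held 609, of which Hist1h2bc and Hist2h2be gave 601. Of these 22, the 17 whose model ends within 50 bases of the stop codon held 8. Histone genes share sequence with near-identical copies, and the effect on these counts was not tested. A median of 42.2% of the 75-base words of a histone transcript also occur in another gene. The median was 57.6% for genes at 0 and 34.5% for detected genes. The treatment of reads that fit several genes is not stated. The share was 27.1% for Hist1h2bc, 28.4% for Hist1h1e and 0% for Hist2h2be.

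The libraries held 1798469 to 2215855 UMIs, and 3 counts correspond to 1.35 to 1.67 CPM. Listed genes held 77.6% and 75.6% of the UMIs with PBS, and 71.3%, 67.1% and 65.9% with Sema3G. The share of UMIs on Rn45s, the ribosomal RNA precursor, was 1.01% and 3.19% with PBS, and 6.31%, 7.40% and 7.88% with Sema3G. All 7 macrophage markers looked up were detected, with a summed level of 9642 to 12392 CPM with PBS and 8705 to 9390 CPM with Sema3G. The markers of B cells were at 0, and those of T cells, neutrophils, mast cells and basophils, and erythroid cells gave 0 to 5 UMIs per library each. Stromal markers gave 7 to 22 UMIs per library. In such bulk RNA, fewer cells of a type and less RNA per cell cannot be told apart.

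The summed histone level differed little between the groups, while its makeup differed more. All 68 genes together gave 179 and 169 UMIs in PBS replicates 1 and 2, and 161, 180 and 160 in Sema3G replicates 1 to 3. As CPM this was 98.3 and 90.5 with PBS, and 89.5, 81.2 and 73.8 with Sema3G. The Sema3G libraries lay below the PBS libraries, and the mean was 0.863 times that of PBS (log2 ratio -0.21). The median log2 fold change of all genes tested was -0.22 on this scale. With CPM computed on the sum of the listed genes without Rn45s, the log2 ratio of the histone sum turned to 0.077.

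H2B, the type with most UMIs, made up a smaller share of the histone RNA with Sema3G, and H1 a larger one. H2B took 92.2% and 81.1% of histone UMIs with PBS, and 73.3%, 55.0% and 57.5% with Sema3G. H1 took 1.68% and 13.0% with PBS, and 18.6%, 33.9% and 31.3% with Sema3G. For neither type did the groups overlap, though for both PBS replicate 2 was nearer to Sema3G replicate 1 than to PBS replicate 1.

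**Figure D2:**
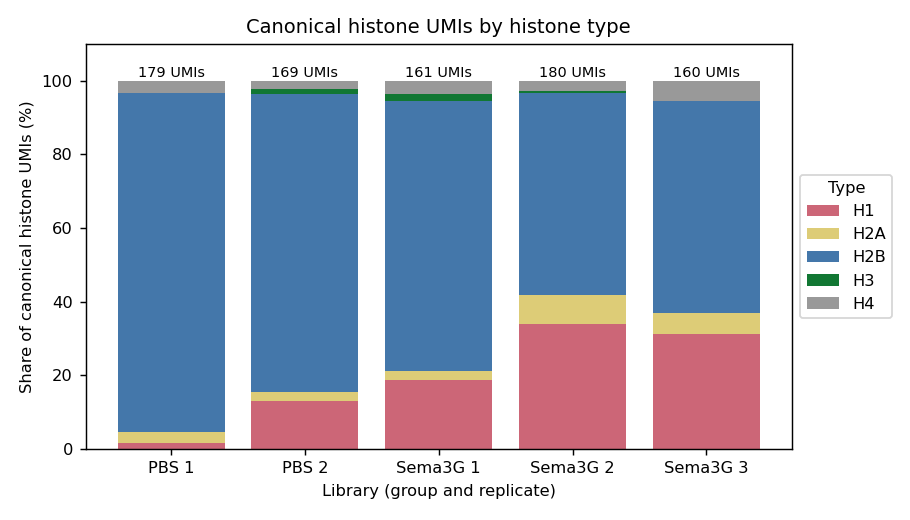
Share of canonical histone UMIs (vertical axis, %) by histone type in each of the 5 libraries (horizontal axis), with the number of UMIs above each bar. H1 takes 1.68% and 13.0% in the PBS libraries and between 18.6% and 33.9% in the Sema3G libraries, and H2B takes 92.2% and 81.1% against 55.0% to 73.3%.

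In level, H2B stood at 90.7 and 73.3 CPM with PBS and at 65.6, 44.7 and 42.4 CPM with Sema3G. Its UMIs gave a rate with Sema3G of 0.610 times that with PBS (95% exact interval 0.519 to 0.718, counting error only). The log2 ratio of the H2B means was -0.69, and it ran from -0.91 to -0.41 over 10 alternatives. H1 stood at 1.65 and 11.8 CPM with PBS and at 16.7, 27.5 and 23.0 CPM with Sema3G, with a rate ratio of 3.36 (2.19 to 5.37). All Sema3G libraries were below both PBS libraries for H2B and above both for H1. The log2 ratio of the H1 means was 1.74, which became 0.93 if PBS replicate 1 was left out and 3.77 if PBS replicate 2 was.

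The other 3 types were near the limit of detection and their groups overlapped. H2A had 5 and 4 UMIs in the PBS group and 4, 14 and 9 in the Sema3G group (rate ratio 1.79, interval 0.817 to 4.32). H4 had 6 and 4 in the PBS group and 6, 5 and 9 in the Sema3G group (1.19, interval 0.533 to 2.85). H3 had 0 and 2 in the PBS group and 3, 1 and 0 in the Sema3G group, 6 UMIs over 12 genes. At this depth no difference was detectable for these types.

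**Figure D3:**
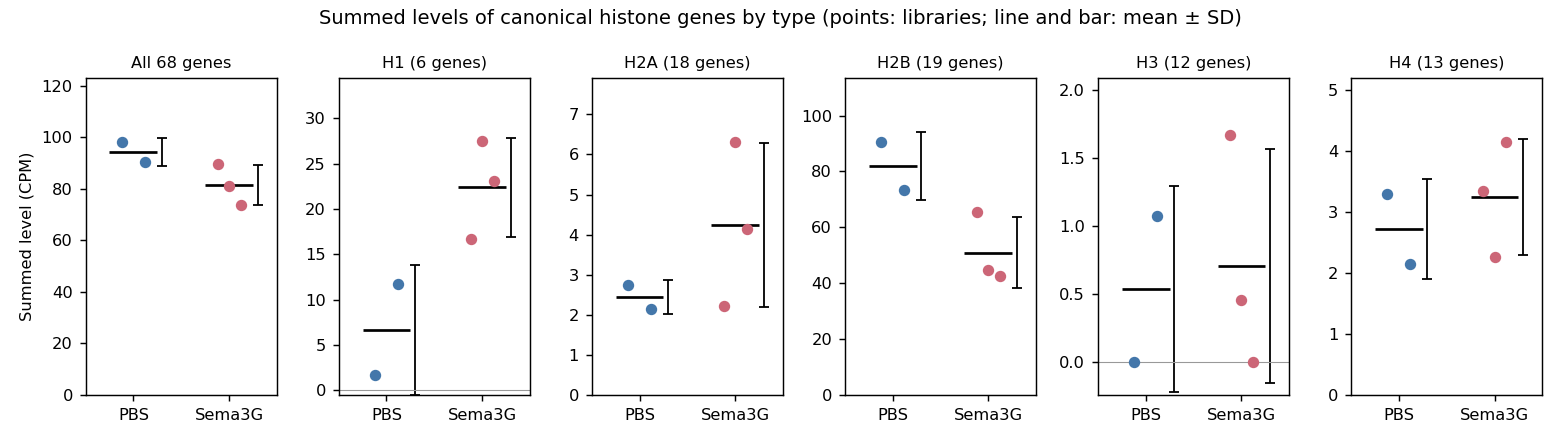
Summed level of all 68 genes and of each histone type (vertical axes, CPM, each panel with its own scale) in the PBS and Sema3G groups; points are libraries, lines the group means and bars the SD (n = 2 and n = 3). The 3 Sema3G libraries lie above both PBS libraries for H1 and below both for H2B and for all 68 genes, and the groups overlap for H2A, H3 and H4.

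Across all genes, 10088 reached a mean of 1 CPM and were tested, and 1.80% passed an adjusted p of 0.05 in limma, 1.59% as higher and 0.218% as lower with Sema3G. Of the 3 canonical histone genes that entered the test, 1 was called higher, 0 lower and 2 did not pass.

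The signal of H2B and of H1 came mainly from 1 gene each, since Hist1h2bc gave 546 of 611 H2B UMIs and Hist1h1e 151 of 166 H1 UMIs. Hist1h2bc had 143 and 127 UMIs in the PBS group and 106, 91 and 79 in the Sema3G group, or 78.6 and 68.0 CPM against 58.9, 41.1 and 36.4 CPM. The Sema3G libraries were all lower, as they were for 26.5% of the genes tested. The PBS mean of 73.3 ± 7.48 CPM (SD, n = 2) stood against a Sema3G mean of 45.5 ± 11.9 CPM (SD, n = 3), and the difference did not pass the test across all genes (log2 fold change -0.70, standard error 0.23, limma adjusted p = 0.114). It passed in 1 of 14 alternatives, the one without Sema3G replicate 1 (log2 fold change -0.90, limma adjusted p = 0.0191). In that fit 856 of all 10073 genes tested passed, 553 of them as lower. Without Sema3G replicates 2 and 3 the limma adjusted p of Hist1h2bc was 0.385 and 0.423. Its log2 fold change ran from -0.90 to -0.42 over the 14 alternatives.

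Hist1h1e, which encodes a somatic linker histone, had 2 and 20 UMIs in the PBS group and 27, 56 and 46 in the Sema3G group, or 1.10 and 10.7 CPM against 15.0, 25.3 and 21.2 CPM. All Sema3G libraries were higher than both PBS libraries, as they were for 11.9% of the genes tested. Hist1h1e rose from 5.90 ± 6.79 CPM (SD, n = 2) to 20.5 ± 5.17 CPM (SD, n = 3), a 3.47-fold ratio of the means. The log2 fold change in limma, which averages log2(CPM + 1) and so gives the low PBS replicate 1 more weight, was 2.09 (standard error 0.50, 95% interval 1.04 to 3.14, limma adjusted p = 0.0418). Relative to the median of all genes its log2 fold change was 2.31, and that of Hist1h2bc -0.48. The PBS libraries differed by a 9.74-fold rate ratio for this gene (PBS replicate 2 over 1, exact interval 2.37 to 86.0).

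The call for Hist1h1e was a narrow one. On recovered UMI counts its adjusted p was 0.0522 by edgeR's quasi-likelihood test and 0.512 by DESeq2. With limma it was 0.269 without PBS replicate 1, where the log2 fold change dropped to 0.85, and 0.169 and 0.156 without Sema3G replicates 2 and 3. Leaving out PBS replicate 2 raised the log2 fold change to 3.33 (limma adjusted p = 4.7e-05). Over 14 alternatives it stayed past the threshold in 7, its adjusted p ran from 8.2e-06 to 0.512, and its fold change kept its sign in all 14. The lowest adjusted p came from the replicate block in limma, which rests on only 2 pairs of libraries. Rn45s and Malat1, a nuclear long noncoding RNA, were also higher in PBS replicate 2 than in replicate 1, by 3.17-fold and 2.30-fold. Their part in the result was not tested.

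Hist2h2be, the second H2B gene, had 20 and 8 UMIs in the PBS group and 9, 7 and 11 in the Sema3G group, or 11.0 and 4.28 CPM against 5.00, 3.16 and 5.07 CPM. The groups overlapped and the difference was within the spread (log2 fold change -0.58, standard error 0.44, limma adjusted p = 0.449). Its PBS libraries also differed, but the other way round, with PBS replicate 1 above replicate 2 by 2.57-fold (exact interval 1.08 to 6.73), and its log2 fold change was 0.01 once PBS replicate 1 was left out.

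**Figure D4:**
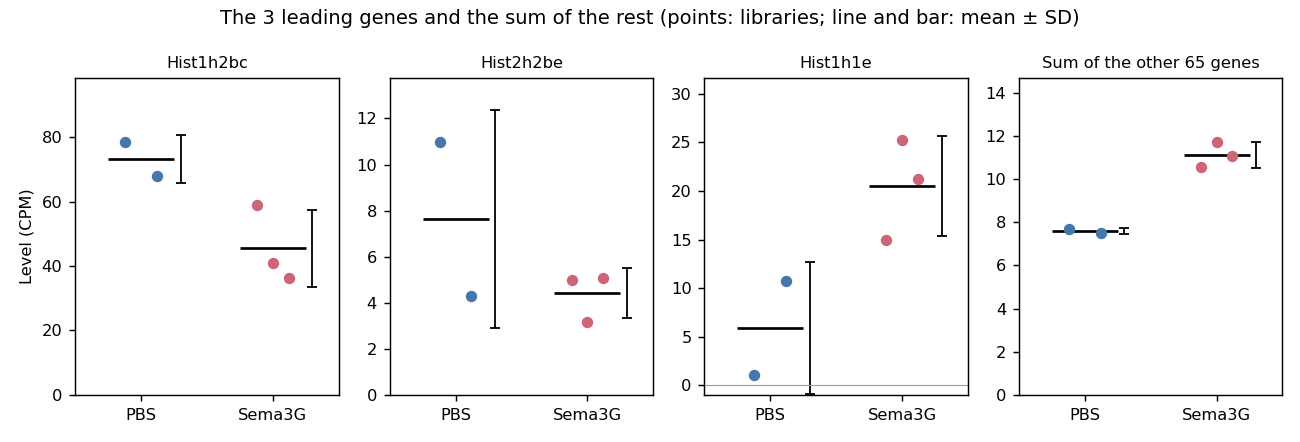
Level (vertical axes, CPM, each panel with its own scale) of Hist1h2bc, Hist2h2be, Hist1h1e and the sum of the other 65 genes in the PBS and Sema3G groups; points are libraries, lines the group means and bars the SD (n = 2 and n = 3). Hist1h2bc is lower and Hist1h1e and the sum of the rest are higher in all 3 Sema3G libraries, while Hist2h2be overlaps; the PBS libraries of Hist1h1e lie at 1.10 and 10.7 CPM.

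The other 65 genes were too rare to test singly. Together they had 14 and 14 UMIs in the PBS group and 19, 26 and 24 in the Sema3G group, or 7.69 and 7.49 CPM against 10.6, 11.7 and 11.1 CPM. The Sema3G libraries were higher, with a rate ratio of 1.47 whose exact interval, 0.935 to 2.37, includes no difference. Of the 27 detected among them, 12 (44.4%) had UMIs with Sema3G only and 3 (11.1%) with PBS only. Over all 2554 genes with 1 to 8 UMIs these shares were 38.4% and 18.8%, from library totals of 6183624 UMIs with Sema3G and 3688099 with PBS.

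Among these rare genes, Hist2h2ac (H2A) was at 0 in both PBS libraries, with 1, 4 and 3 UMIs in the Sema3G libraries, at least 1.59-fold higher if the PBS group is set at a limit of 3 counts in all. The exact interval of its rate ratio, which includes the counting error of the Sema3G UMIs, starts at 1.02. Hist1h2ae (H2A) had 1 and 1 in the PBS group and 0, 4 and 1 in the Sema3G group. Hist1h1c, the next H1 gene, had 1 and 2 in the PBS group and 1, 2 and 2 in the Sema3G group, for a rate ratio of 0.994 with an exact interval of 0.193 to 6.40. Hist1h4h (H4) had 1 and 1 in the PBS group and 3, 0 and 3 in the Sema3G group, and Hist1h4i (H4) 3 and 0 with PBS and 2, 1 and 1 with Sema3G. Hist1h3a was the most counted H3 gene with 2 UMIs in all, 1 in each group, and 4 H3 genes had 1 UMI each. Of the 27 rare genes, 3 (11.1%) had all Sema3G libraries above both PBS libraries, against 3.13% of all genes with 1 to 8 UMIs, and 0 had them all below, against 6.38%. The 3 are Hist2h2ac and, named after their values were seen, Hist1h1d (H1, at 0 with PBS, then 2, 3 and 1 UMIs) and Hist1h4c (H4, at 0 with PBS, then 1, 2 and 1 UMIs), whose exact intervals start below 1, at 0.702 and 0.394.

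**Figure D5:**
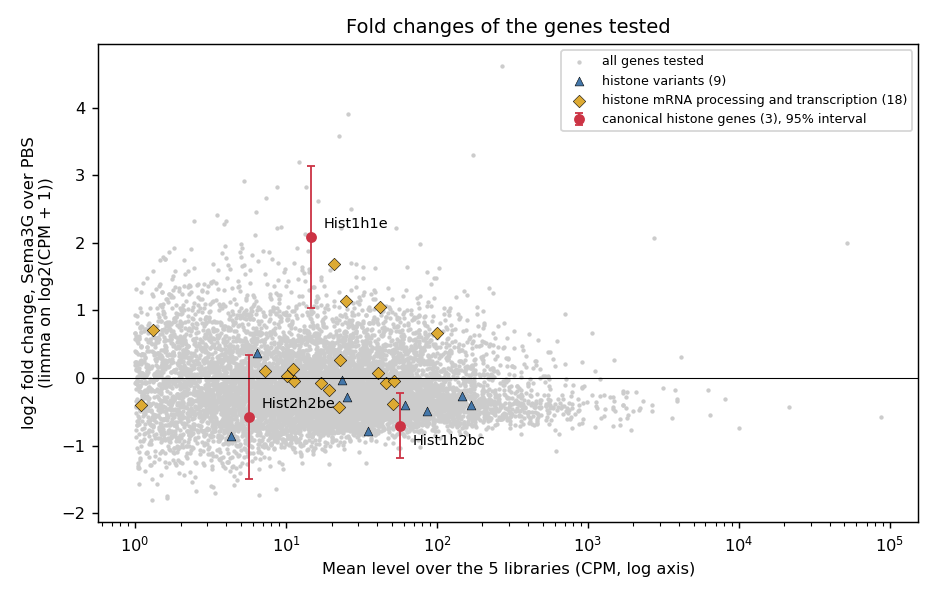
Log2 fold change of Sema3G over PBS from limma on log2(CPM + 1) (vertical axis) against mean level over the 5 libraries (horizontal axis, CPM, log scale). Grey points are the 10088 genes tested, blue triangles histone variants, yellow diamonds genes of histone mRNA processing and transcription, and red circles the 3 canonical histone genes with their 95% intervals; Hist1h1e stands at 2.09, and Hist1h2bc and Hist2h2be at -0.70 and -0.58.

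Histone variants had more UMIs than their canonical counterparts in these libraries. Priming from poly(A) favors the polyadenylated variants, so the counts do not compare total histone RNA. The genes of histone H3.3, H3f3a and H3f3b, had 1885 UMIs together against 6 for the 12 canonical H3 genes. The 6 H2A variant genes had 3157 UMIs against 36 for the 18 canonical H2A genes. H1f0 had 341 and H1fx 0, against 166 for the 6 canonical H1 genes. None of the 9 variants tested passed the threshold in limma or in edgeR or DESeq2. At an unadjusted p under 0.05, 3 were lower and 0 higher, against 14.2% and 6.83% of all genes tested. Their median log2 fold change was -0.40, beside -0.22 for all genes.

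H3f3b had 403 and 320 UMIs in the PBS group and 263, 343 and 307 in the Sema3G group (log2 fold change -0.40, standard error 0.19, limma adjusted p = 0.229). H3f3a had 61 and 45 in the PBS group and 47, 53 and 43 in the Sema3G group (-0.29, limma adjusted p = 0.528). H2afz, which encodes H2A.Z, had 44 and 43 in the PBS group and 57, 45 and 41 in the Sema3G group (-0.03, limma adjusted p = 0.958). H1f0, the linker histone of cells that have stopped dividing, was singled out after its values were seen, because it lay on the other side from Hist1h1e. It was counted 82 and 90 times with PBS and 40, 74 and 55 times with Sema3G (log2 fold change -0.79, standard error 0.24, limma adjusted p = 0.0954).

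Of the genes that transcribe, cut and degrade histone mRNA, 3 of the 18 tested rose with Sema3G, 0 fell and 15 did not pass, and their median log2 fold change was 0.05. Over all genes tested, 1.59% rose and 0.218% fell, with a median of -0.22. Casp8ap2, which encodes FLASH, a component of the histone locus body needed for the cut after the stem-loop, had 11 and 21 UMIs in the PBS group and 44, 72 and 65 in the Sema3G group (log2 fold change 1.68, standard error 0.30, limma adjusted p = 0.00723). Zcchc11, a terminal uridylyltransferase, had 35 and 60 UMIs against 92, 108 and 129 (1.06, limma adjusted p = 0.0329). Xrn1, the main cytoplasmic 5′ to 3′ exonuclease, had 22 and 30 against 55, 84 and 60 (1.13, limma adjusted p = 0.0351).

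For all 3, which were picked because they passed, the Sema3G libraries lay above both PBS libraries, as they did for 11.9% of all genes tested. As each library was left out, the log2 fold change ran from 1.28 to 2.08 for Casp8ap2. It ran from 0.70 to 1.41 for Zcchc11 and from 0.94 to 1.32 for Xrn1. None of the 3 passed without PBS replicate 1 or without Sema3G replicate 2 or 3, where the adjusted p of Casp8ap2 was 0.0545, 0.0647 and 0.0504 in limma. Slbp itself was near the limit of detection, with 0 and 2 UMIs in the PBS libraries against 0, 8 and 4. It is among the 18 tested, reached the mean of 1 CPM through the Sema3G libraries only, and did not pass. Npat, which switches on histone gene transcription in S phase, had 13 and 31 UMIs in the PBS group and 22, 26 and 18 in the Sema3G group (-0.04, limma adjusted p = 0.959).

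Among histone chaperones and remodelers, 1 of 16 tested rose, 0 fell, and the median log2 fold change was -0.25, against 1.59%, 0.218% and -0.22 for all genes. The gene that rose was Atrx, a chromatin remodeler that works with Daxx in the deposition of H3.3. It had 186 and 223 UMIs in the PBS group and 338, 510 and 608 in the Sema3G group (log2 fold change 1.05, standard error 0.20, limma adjusted p = 0.0114). Atrx kept a log2 fold change of 0.91 to 1.19 as each library was left out. It too missed the threshold without PBS replicate 1 (0.0618), Sema3G replicate 2 (0.0825) or Sema3G replicate 3 (0.114), by limma's adjusted p.

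None of the 20 S phase genes tested passed the threshold in limma, 0 did so at an unadjusted p under 0.05, and 0 passed in edgeR or DESeq2. Over all genes 1.80% passed, and 6.83% (higher) and 14.2% (lower) had an unadjusted p under 0.05. Their median log2 fold change was -0.21, close to that of all genes. Slbp, which reached the mean of 1 CPM through the Sema3G libraries only, is also among these 20. Pcna, the clamp of the replication fork, had 28 and 22 UMIs in the PBS group and 15, 20 and 16 in the Sema3G group (log2 fold change -0.65, limma adjusted p = 0.266). Mki67, a proliferation marker, had 3 and 8 against 14, 14 and 10 (0.93, limma adjusted p = 0.239), and Top2a, a topoisomerase of dividing cells, 8 and 8 against 28, 11 and 11 (0.66, limma adjusted p = 0.405).

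Of the RNAs that lack a poly(A) tail or stay in the nucleus, 4 were tested for context. Malat1 rose from 1069 and 2519 UMIs in the PBS group to 4568, 8840 and 11321 in the Sema3G group (log2 fold change 2.08, standard error 0.33, limma adjusted p = 0.00307). Rn45s had a log2 fold change of 2.0 (standard error 0.64, limma adjusted p = 0.111). Neat1 lay on the other side, with 3645 and 4763 UMIs in the PBS group and 2662, 3651 and 3342 in the Sema3G group (log2 fold change -0.54, limma adjusted p = 0.198). As CPM all its Sema3G libraries were below both PBS libraries, as they were for 26.5% of the genes tested. Rpph1, which reached the mean of 1 CPM through the Sema3G libraries only, did not pass.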

How the data were processed

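The authors made 3′ end libraries with UMIs (QuantSeq, oligo(dT) primed). Strand NGS aligned the reads to mm10 and counted the UMIs of each gene, and edgeR (3.12 in the submitters' processing notes) was used for normalization and testing. The annotation, the filters and the treatment of reads that fit several genes were not stated. The authors deposited CPM values per library, and p-value, q-value and rank columns of their own comparison, which were not used. In each library the deposited CPM rose in equal steps, from which UMI counts were recovered (100% of positive values within 0.01 of a whole count).

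Groups were compared on log2(CPM + 1) in limma (3.58.1, under R 4.3.3) with its trend option. Genes whose mean reached 1 CPM entered, and p was adjusted over all of them by Benjamini-Hochberg. Fold changes on this scale understate changes of low genes. edgeR (4.0.16) and DESeq2 (1.42.0) on the recovered counts were alternatives, with other pseudocounts, filters and scalings, the replicate block, and each library left out. Rate ratios have exact binomial intervals at 95%, which cover counting error only. The scripts were checked on simulated data. Sema3G replicates 2 and 3 were the most alike (chi-square per degree of freedom 1.77, other pairs 6.57 to 29.6), beyond sampling noise, and were counted separately.

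The genes and lists were chosen with earlier results of these data known. Named are the histone genes that were tested or had at least 10 UMIs, the 2 with most UMIs per type (ties counted only), and from the other lists the genes past the threshold plus H2afz, H3f3a, H3f3b, Slbp, Npat, Pcna, Mki67, Top2a and Rn45s. H1f0, Neat1, Rpph1, Hist1h1d, Hist1h4c, Hist3h2bb-ps and, for its overlap, Hist1h2be are outside this rule.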

Additional observations from a re-analysis of the deposited data

How the results depend on the processing

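The single histone gene called, Hist1h1e, was lost (0 called) with a pseudocount of 0.1, with no filter, in edgeR and in DESeq2, and the count of histone genes called was 0 to 2 as each library was left out. Calls among histone variants were 1 with the replicate block and 0 to 1 with a library left out, against 0. Among genes of histone mRNA processing and transcription they were 1 with no filter, 4 with CPM over listed genes and 4 with the block, against 3. With a Sema3G library left out they were 0 to 4. Among chaperones they were 2 with TMM-scaled CPM, CPM over listed genes other than Rn45s, edgeR, DESeq2 and the block, and 0 to 3 with a library left out, against 1. Among the RNAs given for context they were 2 with TMM-scaled CPM, CPM over listed genes, edgeR and the block, and 1 to 2 with a library left out, against 1. S phase genes gave 0 calls under every alternative run. The log2 ratio of the histone sum was -0.011 with TMM-scaled CPM, 0.077 with CPM over listed genes and 0.77 without Hist1h2bc, against -0.21. That of H1 was 0.93 to 3.77 with a library left out, against 1.74. Over all genes, 182 calls (160 higher, 22 lower) became 108 with no filter, 325 (322 higher, 3 lower) with TMM-scaled CPM, 487 (486 higher, 1 lower) with CPM over listed genes, 334 (330 higher, 4 lower) in edgeR, 573 (298 higher, 275 lower) with the block, and 26 to 856 with a library left out. The median log2 fold change of all genes moved from -0.22 to -0.04 with TMM-scaled CPM and 0.04 with CPM over listed genes. The cause was not tested. The replicate numbers give only 2 pairs, whose deviations correlated weakly across genes (r = 0.17 and 0.11). With 2 PBS libraries the PBS deviations are mirror images, so the swapped pairs have the same values with a minus sign (-0.17 and -0.11). The check therefore cannot tell whether the numbers mark true pairs. Sema3G replicate 3 has no PBS partner, so the block's log2 fold change of Hist1h1e equals that without this library (2.05). With the block Hist1h1e had an adjusted p of 8.2e-06 in limma and Hist1h2bc 0.0828. The filter on the mean CPM left 65 of the 68 histone genes untested, and 2 PBS libraries that differ by 9.74-fold in Hist1h1e limit what can be said of it.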
